A study of Mus musculus with 21 samples.

Results

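The comparison described here set the striatum of mice given a virus carrying Cas9 against WT striatum, in the first of the study's sets of RNA sequencing libraries. It was made of the 3 Cas9 and 3 WT libraries whose titles carry the numbers of that set, 6 of the 21 libraries in all. The 3 libraries of GCas9 virus in the same set took part in the fit, since the 3 groups share an estimate of the spread, and are described only where they are set beside Cas9. The libraries of the second set were not used here.

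Per the labels, the mice were wild type, an adeno-associated virus (AAV, a carrier of a gene that does not replicate) was injected into the striatum, and the tissue was collected 3 weeks later. The virus of the Cas9 libraries carried Cas9, the bacterial nuclease used for genome editing. The labels name no guide RNA and no promoter for it. What GCas9 stands for is not stated in the labels; it is known from the study as a fusion of Cas9 with a piece of Geminin. The WT libraries carry the same injection protocol as the others, but WT stands where the virus is named, so it is not known whether those mice received a virus. Injection, AAV and Cas9 therefore cannot be told apart in this comparison. One label gives the age of the mice as 3 weeks and another as 3 months, for every library used, and this was not resolved. The labels do not say whether the replicates were separate animals or whether a library pooled several. The p-values therefore measure the spread between these libraries, which may be partly technical. In bulk tissue, more cells of a type and more RNA per cell cannot be told apart.

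The striatum is the input station of the basal ganglia and is built mainly of medium spiny neurons, which use GABA and carry either the dopamine receptor D1 or the dopamine receptor D2. Microglia are the resident phagocytes of the brain, and astrocytes respond to injury by raising the filament protein GFAP. A foreign protein made inside a cell is cut by the proteasome and its peptides are shown to CD8 T cells on MHC class I molecules, while phagocytes and B cells show peptides to CD4 T cells on MHC class II molecules. Interferons raise both pathways, together with a large set of antiviral genes.

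Levels below are normalized read counts, that is, the reads of a gene divided by a size factor of its library. Values of a group are given in the order of replicates 1, 2 and 3. Differences are on the scale of log2(normalized count + 1), Cas9 minus WT, with the standard error (SE) of the fit, and understate the change of genes with few reads. A gene counted as changed when its limma p-value, adjusted over all 15924 genes tested by the method of Benjamini and Hochberg, was under 0.05. A gene whose 3 Cas9 values all lay above, or all below, its 3 WT values is called separated.

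The 6 libraries held between 22.62 and 28.05 M (mega) reads on genes, and mitochondrial transcripts took 6.36% to 7.57% of them. Markers of spiny neurons were abundant in every library, with Ppp1r1b (DARPP-32) at 56259 to 68228. Replicate 3 of WT and of Cas9 had Xist, the transcript of the inactive X chromosome, at 26792 and 32909, and replicates 1 and 2 of both groups at 12.8 to 19.8, so the sexes were balanced between the groups. Replicate 3 of each group thus came from other mice than replicates 1 and 2. Cas9 replicate 1 stood apart in markers of the choroid plexus, the tissue of the ventricle that makes cerebrospinal fluid. Ttr (transthyretin) was at 280177, 188 and 1817 in Cas9 and at 413, 272 and 281 in WT, and the summed level of 16 choroid plexus and ependymal genes was 399700 in Cas9 replicate 1 against 19990 to 23920 in the other 5 libraries. WT replicate 3 had the highest mean log2 level of 14 genes of cortical neurons, 8.57 against 7.3 to 7.96 in the other 5 libraries, though not the highest summed level (34140 against 31190 to 40960). The vesicular glutamate transporter Slc17a7 was at 122, 328 and 1561 in WT and at 423, 121 and 137 in Cas9. Both features are given again beside the results they move with.

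The comparison asked which transcripts differ between striatum with Cas9 virus and WT striatum. Of 15924 genes tested, 1 passed the threshold (0.00628%), and it was higher with Cas9. It is Gpnmb, a membrane glycoprotein of the lysosomes of activated phagocytes. Gpnmb was at 20.2, 20.7 and 24.7 in the 3 WT libraries and at 146, 144 and 251 in the 3 Cas9 libraries. The lowest Cas9 library lay well above the highest WT library, and the groups did not overlap. Gpnmb rose by 2.94 ± 0.28 on the log2 scale (limma adjusted p = 0.0383), from 70 reads in the WT group to 534 reads in the Cas9 group. The gene, ENSMUSG00000029816, is protein coding and lies on the plus strand of chromosome 6, from 49036546 to 49070929 in GRCm38. The call was lost with a pseudocount of 5 (adjusted p = 0.0578), with edgeR's quasi-likelihood test (adjusted p = 0.0941) and on leaving out WT replicate 1, 2 or 3 or Cas9 replicate 1 or 3 (adjusted p from 0.0988 to 0.413), while the difference stayed between 2.68 and 3.07 in these fits.

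The 250 bases before the RefSeq start of Gpnmb, at chr6:49036268-49036517 on the plus strand of GRCm38.p6, are shown because it is the 1 gene past the threshold.
Gpnmb: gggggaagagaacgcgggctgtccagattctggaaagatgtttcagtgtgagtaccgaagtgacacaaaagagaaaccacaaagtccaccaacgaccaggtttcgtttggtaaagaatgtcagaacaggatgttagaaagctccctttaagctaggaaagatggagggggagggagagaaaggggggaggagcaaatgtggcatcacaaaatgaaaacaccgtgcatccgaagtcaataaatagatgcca
It has no capitals because neither CACGTG nor CATGTG (read on both strands), 6-base sites known to be bound by the lysosomal and melanocyte factors of the MITF and TFE family, is in this window. Of the 32851 windows of the same length in the table, 6.02% hold the former and 12.3% the latter.

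Below the threshold, many more genes were separated than the single call shows. Among the genes tested, 3118 were separated (19.6%): 1707 were separated and higher with Cas9 (10.7%) and 1411 were separated and lower (8.86%). An unadjusted p under 0.05 was reached by 982 higher genes (6.17%) and 900 lower genes (5.65%), and the smallest adjusted p after that of Gpnmb was 0.205. With quantile normalization the split of separated genes was 1325 higher and 1877 lower. DESeq2 on the recovered reads called 116 genes, 95 higher and 21 lower, among them Lyz2, Ighg3, H2-Aa, Cd74, Serpina3n, Gfap and Hist1h1c on the higher side and Usp10, Slc6a17 and Hes5 on the lower. The directions differed in size. A difference of at least 1 log2 unit upward was found for 617 genes (3.87%) and downward for 30 genes (0.188%), and one of at least 2 log2 units upward for 268 genes (1.68%). The median over all genes tested was -0.00311, and 49.1% of the genes were above 0.

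**Figure D1:**
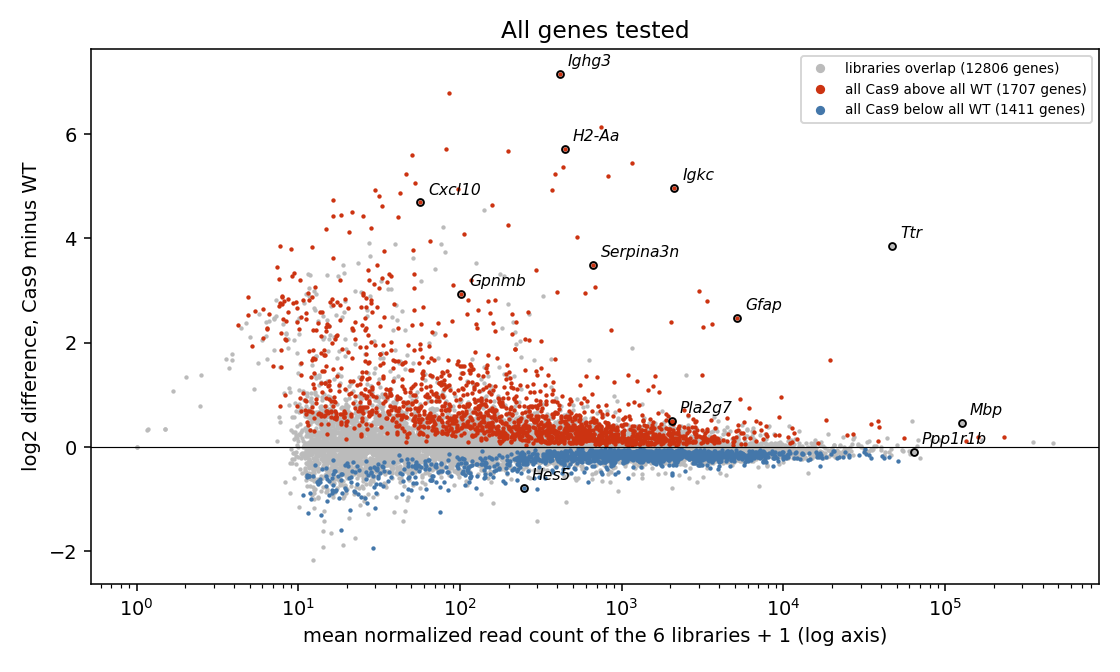
Log2 difference between Cas9 and WT (vertical axis) against the mean normalized read count of the 6 libraries + 1 (horizontal log axis) for the 15924 genes tested, 1 point a gene. Red genes have all 3 Cas9 values above all 3 WT values (1707 genes), blue genes all below (1411 genes), and circles mark named genes; large differences lie on the upper side.

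The large differences came mainly from Cas9 replicates 1 and 3. Of the 617 genes higher by at least 1 log2 unit, Cas9 replicate 2 was the lowest Cas9 library in 557 (90.3%), and over the 617 genes it lay above all WT libraries in 424. Replicate 1 was the highest in 320 and replicate 3 in 283. Without Cas9 replicate 1, 2 or 3, 448, 605 and 528 of the 617 genes still differed by at least 1 log2 unit. Of the 268 genes higher by at least 2 log2 units, 181, 266 and 196 still did so. On the first principal component of the 6 libraries, which took 56.2% of the variance, the WT libraries had scores of -34.7, -28.9 and -30, and the Cas9 libraries scores of 68.3, -15.4 and 40.8. Cas9 replicate 2 was thus the Cas9 library closest to WT. It was the deepest of the 3, at 24.33 M reads against 22.62 and 23.74 M.

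**Figure D2:**
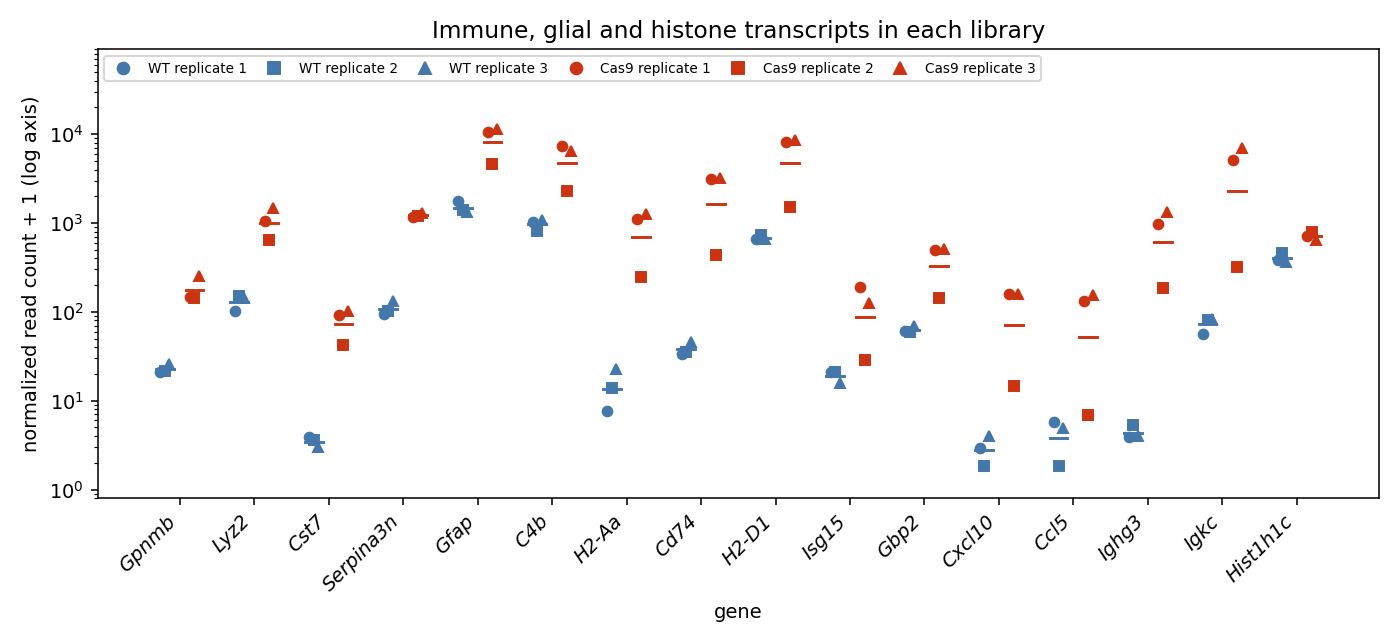
Normalized read count + 1 (vertical log axis) of 16 named genes (horizontal axis) in each of the 6 libraries, WT in blue and Cas9 in red, with the marker shape giving the replicate and a bar the mean on the log scale. Cas9 replicate 2 (red square) is the lowest Cas9 library for most immune genes, but not for Serpina3n or Hist1h1c.

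Gene lists for cell types and pathways are described by counts, beside the counts over all genes given above, and no list was tested as a whole. The 19 immune lists held 332 different genes that were tested. Of these, 317 were higher with Cas9 and 14 lower, 213 were separated and higher (64.2%, against 10.7% of all genes), and 1, Gpnmb, passed the threshold. Their median difference was 1.17, against -0.00311 over all genes. These counts leave out members under the filter on low values (a mean of 10 over the 9 libraries), and 85 of the 332 genes had a WT mean under 10, so that they were tested only because they were higher in Cas9, GCas9 or both, and their direction is no support. This split by the WT mean was chosen after the values were seen. Of the 247 whose WT mean was at least 10, 233 were higher and 161 were separated and higher (65.2%, against 9.77% of the 15459 such genes of all), with a median of 0.818. Cas9 replicate 2 had the lowest median of the 3 Cas9 libraries in 19 of the 19 lists.

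**Figure D3:**
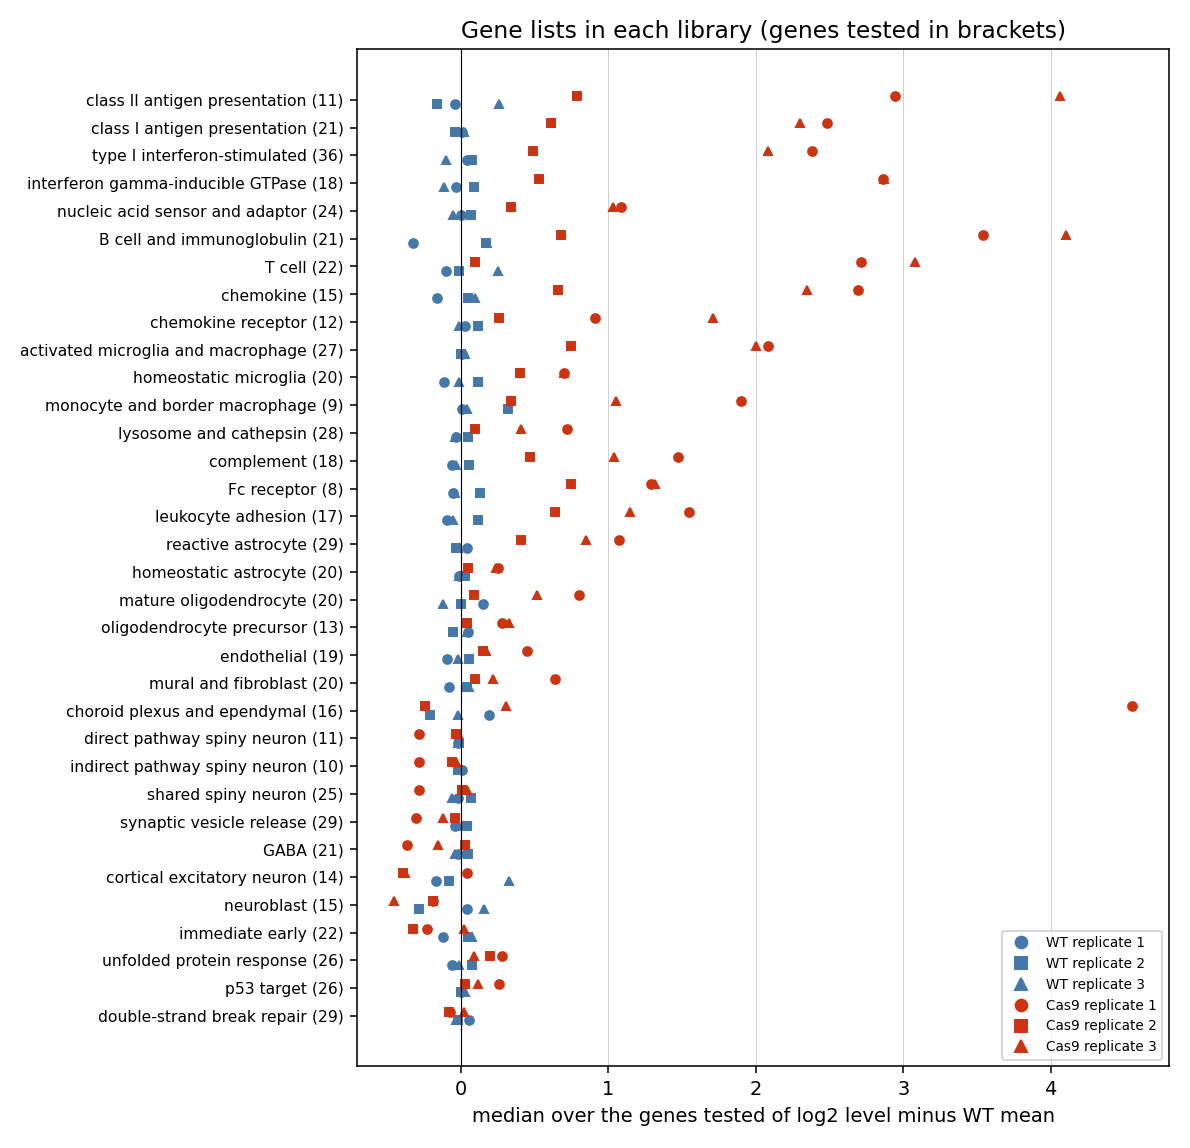
Median over the tested genes of a list (number in brackets) of the log2 level in a library minus the WT mean (horizontal axis), for 34 gene lists (vertical axis) in each WT (blue) and Cas9 (red) library, with the marker shape giving the replicate. Immune lists lie to the right in Cas9, furthest in replicates 1 and 3, neuronal lists near 0, and the choroid plexus list far to the right in Cas9 replicate 1 only.

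Genes of activated microglia and macrophages were higher in all 27 members tested of 29 listed, with a median difference of 1.55, and 20 were separated (74.1%). Of these 27, 8 had a WT mean under 10, Cst7, Itgax and Msr1 among them. These 8 were tested only through their level in Cas9 or GCas9. The 19 with a WT mean of at least 10 were all higher, with 13 separated and higher (68.4%) and a median of 0.724. The member that passed the threshold was Gpnmb. Lyz2, the lysozyme of macrophages and monocytes, was at 100.1, 149 and 142 in WT and at 1065, 648 and 1467 in Cas9. Every Cas9 library was above every WT library, with replicate 2 the lowest, and the difference of 2.96 ± 0.42 did not pass (adjusted p = 0.205). Cst7, an inhibitor of lysosomal proteases that marks activated microglia, was at 2.89, 2.59 and 1.98 in WT, 8 reads in all, and at 90.5, 41.4 and 102 in Cas9 (difference 4.41 ± 0.75, adjusted p = 0.405). In a fit of the 6 WT and Cas9 libraries alone, Cst7 passed (adjusted p = 0.048). Itgax, the integrin CD11c, was at 6.74, 12.1 and 5.93 in WT and at 121, 51.3 and 108 in Cas9, and Msr1, a scavenger receptor, at 1.92, 1.72 and 1.98 and 17.7, 15.8 and 25.3. Both were separated, and Msr1 differed little between the Cas9 libraries.

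Transcripts that resting microglia share were higher by smaller amounts. All 20 members tested were higher, by 0.23 to 1.37, 17 were separated (85%) and none passed, with a median of 0.572. The members named next were chosen by small p or as fixed markers, and do not stand for the whole list. Trem2, a lipid receptor of microglia, was at 304, 383 and 331 in WT and at 745, 496 and 665 in Cas9 (difference 0.89 ± 0.18). Its signalling partner Tyrobp was at 254, 317 and 281 and 653, 448 and 603 (difference 0.98 ± 0.27), and Aif1, the microglial protein known as IBA1, at 105, 87.1 and 121 and 227, 131 and 193 (difference 0.79 ± 0.42). All 3 were separated with adjusted p of 0.405 to 0.471. Cd33, an inhibitory receptor of myeloid cells, was at 129.9, 156 and 153 in WT and at 313, 229 and 343 in Cas9. Outside this list, Pla2g7, a secreted phospholipase that inactivates platelet-activating factor, had the second smallest p of all genes. It was at 1637, 1796 and 1656 in WT and at 2371, 2351 and 2451 in Cas9, nearly equal within each group, and its difference of 0.50 ± 0.0645 missed the threshold (adjusted p = 0.205).

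Lysosomal genes differed less as a group, with 25 of 28 higher, 15 separated and higher (53.6%), none past the threshold and a median of 0.437. Without Cas9 replicate 1 that median was 0.246. Over the 27 lysosomal genes with a WT mean of at least 10, 24 were higher and 14 separated and higher (51.9%), with a median of 0.413. Ctsd, the protease cathepsin D, was at 6002, 7062 and 6271 in WT and at 17086, 9221 and 12404 in Cas9 (difference 0.96 ± 0.26), with replicate 1 the highest. Markers of monocytes and border macrophages were low: 6 of 15 were under the filter on low values, and the 9 tested were all higher (median 0.876) with 3 separated. Of these 9, 4 had a WT mean under 10, Ccr2 among them, and were tested only through their level in Cas9 or GCas9. The other 5 had a median of 0.682, with 1 separated and higher (20%). Mrc1, the mannose receptor of border macrophages, was at 22.1, 44.8 and 45.5 in WT and at 75.9, 51.3 and 74.8 in Cas9. Ccr2, the chemokine receptor of recruited monocytes, was at 2.89, 5.17 and 0.990 in WT and at 29.1, 4.93 and 41.5 in Cas9, with Cas9 replicate 2 within the WT range. Of 12 neutrophil genes, 9 were under the filter, and of the 3 tested 2 were higher and 1 was lower. The median of that list was 0.875, and -0.139 with no filter. Csf3r, a growth factor receptor that microglia also carry, was at 211, 233 and 199 and 493, 269 and 456.

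MHC class II genes had some of the largest differences. Of 11 tested, 10 were higher, 7 were separated (63.6%) and none passed, with a median of 2.59. Over the 9 with a WT mean of at least 10, 8 were higher and 5 separated and higher (55.6%), with a median of 2.01. H2-Aa, the alpha chain of I-A, was at 6.74, 12.9 and 21.8 in WT and at 1101, 248 and 1279.5 in Cas9. All Cas9 libraries were far above WT, and replicate 2 was at 0.208 of the mean of the other Cas9 libraries; the difference was 5.71 ± 0.99 (adjusted p = 0.405). H2-Ab1, the beta chain of I-A, was at 8.66, 11.2 and 27.7 and 921, 163 and 1183, and H2-Eb1, the beta chain of I-E, at 16.4, 16.4 and 17.8 and 851, 163 and 1149. Cd74, the invariant chain that guides class II molecules to the endosome, was at 32.7, 34.5 and 44.5 in WT and at 3140.4, 437 and 3234 in Cas9 (difference 5.44 ± 1.03). The 4 genes shared the order of the libraries, with Cas9 replicate 3 highest and replicate 2 lowest.

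Class I presentation was higher in all 21 members tested, 16 of them separated (76.2%), with a median of 1.69 and none past the threshold. Of these 21, 1 had a WT mean under 10 and was tested only through its level in Cas9 or GCas9. The other 20 had 15 separated and higher (75%) and a median of 1.58. H2-D1, a classical class I chain, was at 658, 728 and 662 in WT and at 8124, 1515 and 8618 in Cas9 (difference 2.79 ± 0.92, adjusted p = 0.405). H2-K1, another classical chain, was at 567, 504 and 487 and 4551, 871 and 5099.9 (difference 2.39 ± 0.97). In both, replicate 2 lay above WT by less than the other Cas9 libraries did. The non-classical chains H2-Q6 and H2-Q7 were at 447, 37.5 and 432 and at 557, 29.6 and 561 in Cas9, against at most 10.9 and 14.8 in WT. These genes are close copies, so reads may have been split between them. The 25 subunits of the constitutive proteasome did not follow, with a median of 0.00604 and 2 separated and higher (8%).

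Promoter windows of MHC class II genes are shown because these genes moved together across the libraries. The capitals mark ATTGG or CCAAT, the site bound by NF-Y and known as the Y box in class II promoters. H2-Aa is read from chr17:34287824-34288073 on the minus strand and H2-Eb1 from chr17:34305617-34305866 on the plus strand, both 250 bases before the RefSeq start in GRCm38.p6.
H2-Aa: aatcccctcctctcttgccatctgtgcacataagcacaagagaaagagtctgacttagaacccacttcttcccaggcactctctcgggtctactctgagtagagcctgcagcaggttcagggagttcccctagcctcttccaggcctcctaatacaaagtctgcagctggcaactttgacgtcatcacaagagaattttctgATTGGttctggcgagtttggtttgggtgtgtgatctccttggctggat
H2-Eb1: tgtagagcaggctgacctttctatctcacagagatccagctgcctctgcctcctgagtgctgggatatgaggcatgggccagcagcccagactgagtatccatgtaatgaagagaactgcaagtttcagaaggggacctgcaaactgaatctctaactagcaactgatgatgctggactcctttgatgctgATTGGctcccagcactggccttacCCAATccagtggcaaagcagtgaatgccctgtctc
The first base of the site lay 48 bases before the start in H2-Aa, and 59 and 35 bases before it in H2-Eb1. It was found in 8 of 9 windows of the class II list (8 members had a window) and in 13 of 19 windows of the class I list, against 33.8% of all windows.

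Type I interferon-stimulated genes were higher in 35 of the 36 members tested and 1 had no read in the 6 libraries. The median was 1.64, 29 were separated (80.6%), and none passed the threshold. The 29 members with a WT mean of at least 10 had a median of 1.47, and 25 of them were separated and higher (86.2%). The other 7, Mx1 and Oasl1 among them, were tested only through their level in Cas9 or GCas9. Isg15, a ubiquitin-like protein made on interferon signalling, was at 20.2, 19.8 and 14.8 in WT and at 189, 27.6 and 123 in Cas9. Cas9 replicate 2 lay just above WT, and the difference of 2.20 ± 1.5 did not pass (adjusted p = 0.548). Mx1, an antiviral GTPase, was at 4.81, 2.59 and 5.93 in WT and at 97.8, 12.8 and 96.1 in Cas9, and Oasl1, a member of the oligoadenylate synthetase family, at 1.92, 4.31 and 0.990 and 42.6, 5.92 and 32.4. Both showed the same order, with replicate 2 a fraction of the others.

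The GTPases induced by interferon gamma were higher in 17 of 18 members tested, with 14 separated (77.8%), a median of 2.06 and none past the threshold. Over the 12 with a WT mean of at least 10, 11 were higher and 10 separated and higher (83.3%), with a median of 1.96. Gbp2, a guanylate-binding protein that acts on vacuoles of pathogens, was at 59.7, 58.6 and 68.2 in WT and at 493, 142 and 513 in Cas9 (difference 2.39 ± 0.99, adjusted p = 0.414). Gbp6 was at 12.5, 14.7 and 24.7 and 335, 47.3 and 258, and Igtp at 36.6, 62.9 and 46.5 and 602, 90.7 and 418. These families hold near copies, and the annotation of Igtp overlaps that of Irgm2 on the same strand, so their counts are uncertain. Among 24 sensors of nucleic acids and their adaptors, 23 were higher and 15 were separated (62.5%), with a median of 0.814. The 20 with a WT mean of at least 10 had 12 separated and higher (60%) and a median of 0.742. The other 4, Zbp1 and Ifi204 among them, were tested only through their level in Cas9 or GCas9. Zbp1, a sensor of Z-form nucleic acid, was at 2.89, 0.860 and 3.95 in WT and at 89.4, 9.86 and 89.0 in Cas9. Ifi204, of the family of interferon-inducible DNA sensors, was at 3.85, 2.59 and 2.97 in WT and at 74.9, 9.86 and 64.7 in Cas9.

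Interferon-response windows are shown for the genes just described and for the chemokine Cxcl10. The capitals mark GAAANNGAAA or TTTCNNTTTC, the core of the interferon-stimulated response element. The windows are chr4:156200819-156201068 on the minus strand for Isg15, chr3:142620413-142620662 on the plus strand for Gbp2, chr11:58199306-58199555 on the plus strand for Igtp and chr5:92348890-92349139 on the minus strand for Cxcl10.
Isg15: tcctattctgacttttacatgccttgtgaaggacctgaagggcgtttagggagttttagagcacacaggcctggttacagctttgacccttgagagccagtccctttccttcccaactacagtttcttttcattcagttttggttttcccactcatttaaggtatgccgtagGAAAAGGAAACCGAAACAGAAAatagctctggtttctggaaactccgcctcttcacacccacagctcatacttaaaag
Gbp2: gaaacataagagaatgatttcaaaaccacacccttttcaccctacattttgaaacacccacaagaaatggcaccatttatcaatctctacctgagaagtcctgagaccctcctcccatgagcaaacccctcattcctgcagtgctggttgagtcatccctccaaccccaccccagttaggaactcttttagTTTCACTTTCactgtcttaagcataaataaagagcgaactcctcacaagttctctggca
Igtp: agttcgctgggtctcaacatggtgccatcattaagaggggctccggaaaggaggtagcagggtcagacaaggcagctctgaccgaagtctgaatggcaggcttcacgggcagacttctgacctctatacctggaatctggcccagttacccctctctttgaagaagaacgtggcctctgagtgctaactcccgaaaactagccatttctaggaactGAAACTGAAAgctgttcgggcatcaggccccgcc
Cxcl10: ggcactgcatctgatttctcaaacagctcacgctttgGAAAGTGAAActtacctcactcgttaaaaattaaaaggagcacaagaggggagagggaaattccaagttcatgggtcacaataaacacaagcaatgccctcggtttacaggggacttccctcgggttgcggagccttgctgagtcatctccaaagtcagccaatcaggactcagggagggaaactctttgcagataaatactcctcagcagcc
In Isg15 the element was matched 3 times in overlapping form, with first bases 78, 72 and 66 bases before the start. It lay 59 bases before the start in Gbp2, 34 in Igtp and 213 in Cxcl10. The response element was in 9 of 11 windows of the interferon gamma GTPases and in 10 of 29 windows of the type I list, against 2.98% of all 32851 windows. Windows were found for 10 of the 18 and 25 of the 36 members tested, and a match is a description of the letters only.

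Chemokines, the proteins that draw leukocytes, were higher in 13 of 15 members tested of 19 listed, with 9 separated (60%), a median of 2.2 and none past the threshold. Of the 7 with a WT mean of at least 10, 5 were higher and 3 separated and higher, with a median of 0.238; the other 8 were tested only through their level in Cas9 or GCas9. Cxcl10 was at 1.92, 0.860 and 2.97 in WT and at 158, 13.8 and 157 in Cas9 (difference 4.69 ± 1.54, adjusted p = 0.405). Cxcl9, which binds the same T cell receptor CXCR3, was at 0, 0 and 0.990 in WT, 1 read in all, and at 159, 9.86 and 127 in Cas9. For both, the WT libraries were near 0, and replicate 2 of Cas9 was far under the other Cas9 libraries. Ccl3, a chemokine of activated microglia, was even across the Cas9 libraries, at 10.4, 11.8 and 13.2 against 2.89, 0.860 and 1.98 in WT. Among 12 chemokine receptors, all were higher (median 0.958) but only 3 were separated (25%). The 6 with a WT mean of at least 10 had 2 separated and higher (33.3%) and a median of 0.458. The other 6, Cxcr3 among them, were tested only through their level in Cas9 or GCas9. Cxcr3, the receptor of Cxcl9 and Cxcl10, was at 0.960, 1.72 and 0 in WT and at 41.6, 0.990 and 63.7 in Cas9, with replicate 2 within the WT range.

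Cytokines and their receptors were higher in 27 of 27 tested (7 of 34 were under the filter), with 16 separated (59.3%) and a median of 0.637. Of these 27, 4 had a WT mean under 10 and were tested only through their level in Cas9 or GCas9. The other 23 were all higher, with 14 separated and higher (60.9%) and a median of 0.62. Osmr, the oncostatin M receptor, was at 118, 87.9 and 87.0 in WT and at 218, 168 and 225 in Cas9. Genes of leukocyte adhesion were higher in 16 of 17, with 13 separated (76.5%) and a median of 1.11, or 0.726 without WT replicate 2. Of the 15 with a WT mean of at least 10, 14 were higher and 12 separated and higher (80%), with a median of 0.647. The other 2 were tested only through their level in Cas9 or GCas9. Ptprc, the pan-leukocyte protein CD45, was at 81.8, 94.8 and 85.0 in WT and at 399, 184 and 458 in Cas9 (difference 1.88 ± 0.70, adjusted p = 0.405). All Cas9 libraries were above WT, replicate 2 by the least.

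Several T cell transcripts were near 0 in WT and differed between the Cas9 libraries. T cell genes were higher in 20 of 22 tested, with a median of 2.03 but only 7 separated (31.8%). Without Cas9 replicate 3 the median was 1.26. As 15 of the 22 had a WT mean under 10, they were tested only through their level in Cas9 or GCas9. Of the other 7, 5 were higher, 2 lower and 1 separated and higher, with a median of 0.427. The summed level of the list, most of it from Cd4 and Thy1, was 12860 to 14310 in WT and 13010 to 14270 in Cas9. Cd3g, a chain of the T cell receptor complex, was at 0, 0 and 0.990 in WT, 1 read in all, and at 31.2, 0.990 and 29.3 in Cas9. Cd8a, the coreceptor of cytotoxic T cells, was at 0, 0 and 0.990 in WT and at 14.6, 0 and 18.2 in Cas9. Both were found in Cas9 replicates 1 and 3, while replicate 2 was within the range of WT. Ccl5, a chemokine made by effector T cells and NK cells, was at 4.81, 0.860 and 3.95 in WT and at 129.98, 5.92 and 154 in Cas9 (difference 3.78 ± 1.58, adjusted p = 0.414). Of 15 cytotoxic and NK genes, 10 were under the filter, and 4 of the 5 tested had a WT mean under 10.

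Immunoglobulin transcripts held the largest difference of all genes. Of 21 B cell and immunoglobulin genes tested, all were higher, 14 were separated (66.7%) and none passed, with a median of 2.92. Of these 21, 10 had a WT mean under 10, Ighg3 among them. These 10 were tested only through their level in Cas9 or GCas9. The 11 with a WT mean of at least 10 were all higher, with 8 separated and higher (72.7%) and a median of 3. Ighg3, a constant region of IgG, was at 2.89, 4.31 and 2.97 in WT and at 968, 182 and 1335 in Cas9. Cas9 replicate 2 was the lowest Cas9 library but lay far above WT, and the difference of 7.16 ± 1.02 had an adjusted p of 0.205. Igkc, the kappa light chain constant region, was at 55.8, 80.2 and 82.1 in WT and at 5170.2, 322 and 6976 in Cas9 (difference 4.96 ± 1.33). Ighg2b was at 7.70, 12.1 and 24.7 and 929, 148 and 1474, and Ighg2c at 11.6, 48.3 and 19.8 and 2040.2, 114 and 2705. The constant regions are close copies and reads may be shared between them. Unlike the T cell genes just named, the 4 immunoglobulin genes were higher than WT in Cas9 replicate 2 as well.

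Complement genes were higher in 16 of 18 tested, with 11 separated and higher (61.1%) and a median of 1. Of these 18, 2 had a WT mean under 10 and were tested only through their level in Cas9 or GCas9. Of the other 16, 14 were higher and 10 separated and higher (62.5%), with a median of 0.906. C4b, a component of the classical pathway that astrocytes make, was at 1027, 811 and 1087 in WT and at 7323, 2297 and 6479 in Cas9 (difference 2.30 ± 0.68, adjusted p = 0.405). C1qa, a chain of the initiating complex made by microglia, was at 789, 1039 and 788 and 2801, 1422 and 2743. C3ar1, the receptor of the C3a fragment, was at 30.8, 62.9 and 39.5 and 131, 102 and 126. All 3 were separated. The 8 Fc receptor genes tested of 10 listed were all higher and all separated (100%), with a median of 1.12. The 6 with a WT mean of at least 10 had a median of 0.996. The other 2, Fcgr4 among them, were tested only through their level in Cas9 or GCas9. Fcgr3, an activating receptor for IgG, was at 221, 263 and 231 in WT and at 488, 371 and 472 in Cas9 (difference 0.89 ± 0.21), and the inhibitory Fcgr2b at 58.7, 58.6 and 64.3 and 206, 119 and 209. Fcgr4 was at 3.85, 2.59 and 0.990 in WT and at 38.5, 6.90 and 23.3 in Cas9. None of these passed the threshold.

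Reactive astrocyte genes were higher in 27 of 29 tested, with 19 separated (65.5%), a median of 0.724 and none past the threshold. Over the 23 with a WT mean of at least 10, 21 were higher and 15 separated and higher (65.2%), with a median of 0.709. Serpina3n, a secreted protease inhibitor, was at 94.3, 100 and 131 in WT and at 1160.5, 1206 and 1289.6 in Cas9. In contrast to most immune genes, it was nearly equal in the 3 Cas9 libraries, and the difference was 3.49 ± 0.62 (adjusted p = 0.405). With the GCas9 libraries left out of the fit, Serpina3n passed (adjusted p = 0.000367). Gfap, the filament protein of astrocytes, was at 1768, 1403 and 1319.9 in WT and at 10650.2, 4650.4 and 11319 in Cas9 (difference 2.47 ± 0.53, adjusted p = 0.405). All Cas9 libraries were above WT, replicate 2 by the least. Aspg, an asparaginase seen in reactive astrocytes, was at 25.0, 25.0 and 17.8 and 88.4, 57.2 and 119.

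General astrocyte markers were higher by less, in 20 of 20 tested, with 9 separated (45%) and a median of 0.176. Ednrb, the endothelin B receptor, was at 1201, 1143 and 1159 in WT and at 1630.5, 1460.4 and 1606 in Cas9 (difference 0.42 ± 0.058, adjusted p = 0.205). Aqp4, the water channel of astrocyte endfeet, was at 1951, 1864 and 1673 and 3326, 2688 and 3022 (difference 0.72 ± 0.24). S100b, a calcium-binding protein, was at 2308, 2462 and 2271 and 3531, 2755 and 3581, and Kcnj10, the potassium channel Kir4.1, at 4189, 4849 and 5207 and 6412, 5961 and 7658. All 4 were separated. Hes5, a Notch target of progenitors and astrocytes, lay the other way, at 334, 308 and 296 in WT and at 201, 186 and 158 in Cas9 (difference -0.78 ± 0.18, adjusted p = 0.405), with every Cas9 library under every WT library.

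Mature oligodendrocyte transcripts were higher by a small and even amount. Of 20 mature oligodendrocyte genes, all 20 were higher, by 0.31 to 0.61 (median 0.468), and 19 had an unadjusted p under 0.05 while none passed the threshold. Only 4 were separated (20%), with Cas9 replicate 2 close to WT. Mbp, the myelin basic protein, was at 116535, 102353 and 96690.1 in WT and at 184549.7, 108207 and 153533 in Cas9 (difference 0.47 ± 0.19). Its lowest Cas9 library lay within the WT range. Mobp, another myelin protein, was at 33606, 31373 and 28744 and 55012, 34897 and 45429.7, and Mal, a proteolipid of myelin, at 8256, 7757 and 6433 and 14083, 8969 and 11024. Genes of oligodendrocyte precursors were less even: 10 of 13 were higher and 3 lower, from -0.16 to 0.70, with 2 separated and higher (15.4%) and a median of 0.176, or 0.288 without Cas9 replicate 2. In that list Enpp6, a marker of newly formed oligodendrocytes, was at 305, 285 and 294 in WT and at 546, 362 and 531 in Cas9 (difference 0.68 ± 0.15, adjusted p = 0.405). Without Cas9 replicate 1, which carried the choroid plexus markers, the median of the mature list was 0.299, and the part of such tissue in the difference was not tested.

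Vessel markers were also higher, by less when Cas9 replicate 1 was left out. Endothelial genes were higher in 18 of 19 tested (7 separated, 36.8%; median 0.315) and mural and fibroblast genes in 20 of 20 (7 separated, 35%; median 0.36). The medians were 0.169 and 0.153 without Cas9 replicate 1. By library, the endothelial median over the WT mean was 0.45, 0.15 and 0.17 in Cas9 and -0.09, 0.06 and -0.02 in WT. Abcb1a, an efflux pump of the blood-brain barrier, was at 790.2, 811 and 877 in WT and at 1068, 965 and 1096 in Cas9 (difference 0.34 ± 0.0679). Cldn5, the tight junction protein of these vessels, was at 519.8, 797 and 617 and 868, 792 and 716, with overlapping groups. Dcn, a matrix proteoglycan of fibroblasts, was at 120.3, 132 and 107 and 385, 162 and 192, with replicate 1 the highest. Choroid plexus and ependymal genes had a median of 1.6, and -0.0556 without Cas9 replicate 1 or 2.58 without Cas9 replicate 2. Over the 14 of them with a WT mean of at least 10 the median was 1.25. Enpp2, the enzyme autotaxin, which the choroid plexus makes in quantity, was at 5381, 5060.1 and 4652 in WT and at 87319.9, 6011 and 7886 in Cas9, and Kl (klotho) at 137, 76.7 and 122 and 6361, 65.1 and 164.

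Transcripts of spiny neurons were lower by small amounts that were smaller still without that same library. Of 11 direct pathway genes 10 were lower (median -0.113), of 10 indirect pathway genes 10 (median -0.1), and of 25 genes of both spiny neuron types 22 (median -0.0882). Separated and lower were 2, 2 and 2 of them (18.2%, 20% and 8%, against 8.86% of all genes), and none passed. Without Cas9 replicate 1 the medians were -0.0316, -0.0225 and -0.000596, and without Cas9 replicate 3 those of the indirect pathway and of both types were -0.165 and -0.141. Striatal interneuron genes were lower in 13 of 17 (2 separated, 11.8%; median -0.127, or -0.0629 without WT replicate 3), and general neuronal genes in 15 of 18 (2 separated, 11.1%; median -0.0999, or -0.0593 without Cas9 replicate 1). Drd1a, the dopamine receptor D1, was at 7319.8, 7675 and 7320.4 in WT and at 5816, 7163 and 7389 in Cas9 (difference -0.14 ± 0.0845). Drd2 was at 5593, 5982 and 5683 in WT and at 4738, 5485 and 5904 in Cas9 (difference -0.10 ± 0.0876), and Penk, the enkephalin precursor of the indirect pathway, at 51064, 58120.3 and 55234 and 46136, 57379 and 55183 (difference -0.0554 ± 0.12). Tac1, the substance P precursor of the direct pathway, was at 4992, 5449 and 5463 and 4147, 5195 and 5609.7. In all 4, Cas9 replicate 1 was the lowest library and the groups overlapped. The signs of Penk and Tac1 turned without Cas9 replicate 1, to 0.0401 and 0.0275.

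Some neuronal genes were separated. Strip2, of the shared spiny neuron list, was at 6941, 6549.7 and 6280.3 in WT and at 5522, 5520.2 and 5556 in Cas9, equal across the Cas9 libraries (difference -0.25 ± 0.0725, adjusted p = 0.405). Rbfox3, the neuronal splicing factor NeuN, was at 7912, 8106 and 8111 and 6352, 7790.2 and 7589 (difference -0.16 ± 0.0836). Crym, a thyroid hormone-binding protein, was at 3571, 2871 and 4187 in WT and at 1584, 3209.8 and 2072 in Cas9 (difference -0.68 ± 0.24), low in replicates 1 and 3 and within the WT range in replicate 2. Pdyn, the dynorphin precursor, had the same order, at 2838, 2852 and 3277 and 1742, 3101 and 2140.3.

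**Figure D4:**
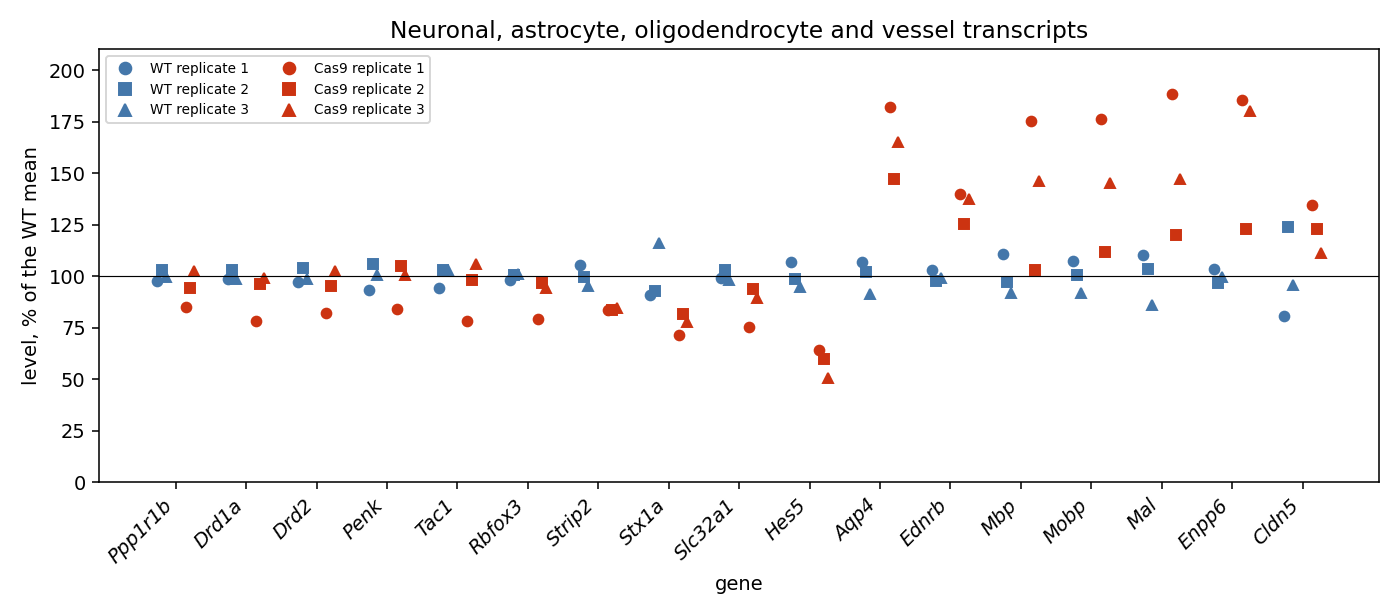
Level of 17 neuronal, astrocyte, oligodendrocyte and vessel genes (horizontal axis) in each library, as a percentage of the mean of the 3 WT libraries (vertical axis), WT in blue and Cas9 in red, with the marker shape giving the replicate. Markers of spiny neurons lie near 100% with Cas9 replicate 1 lowest, Hes5 lies under WT in all Cas9 libraries, and oligodendrocyte genes lie above WT in Cas9 replicates 1 and 3.

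Synaptic genes were lower in most members. Over all genes tested, 8.86% were separated and lower, and 49.1% were above 0. Genes of synaptic vesicle release were lower in 28 of 29 (8 separated, 27.6%; median -0.144, or -0.0705 without Cas9 replicate 1), and genes of GABA signalling in 21 of 21 (3 separated, 14.3%; median -0.147, or -0.0413 without it). Stx1a, a membrane fusion protein, was at 878, 895 and 1122 in WT and at 692, 786 and 752 in Cas9 (difference -0.37 ± 0.10). Sv2b, a vesicle glycoprotein, was at 4553, 4339 and 4573 and 2972, 4183 and 3381. Slc32a1, which loads GABA into vesicles, was at 6245, 6485 and 6199 and 4753, 5916 and 5639. All 3 were separated and none passed. Glutamate receptor and postsynaptic genes (26 of 31 lower, median -0.121), potassium channels (26 of 32, -0.108) and sodium and calcium channels (22 of 27, -0.0976) had medians of the same size, and -0.0351, -0.0579 and -0.0256 without Cas9 replicate 1. Without Cas9 replicate 2 the last was -0.153. Separated and lower were 4 of the glutamate receptor and postsynaptic genes (12.9%), 7 of the potassium channels (21.9%) and 2 of the sodium and calcium channels (7.41%). Kcna5, a voltage-gated potassium channel, had the largest difference of its list, at 848, 689 and 715 in WT and at 364, 626 and 464 in Cas9 (difference -0.66 ± 0.17, adjusted p = 0.405).

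Genes of neuronal activity and of new neurons were also lower in part. Immediate early genes were lower in 15 of 22 (3 separated, 13.6%; median -0.164, or -0.1 without WT replicate 3, -0.31 without WT replicate 1 and -0.278 without Cas9 replicate 3). Fos, the transcription factor induced by activity, was at 594, 722 and 518 in WT and at 530.3, 332 and 362 in Cas9, and its relative Fosb at 487, 484 and 517 and 322, 439.8 and 306 (difference -0.49 ± 0.13). Junb, a partner of both, was at 2199, 2298 and 2496 and 1793, 1655 and 2046. Neuroblast genes were lower in 12 of 15 (3 separated, 20%; median -0.199, or -0.354 without Cas9 replicate 1 and -0.343 without WT replicate 2). Dlx2, a transcription factor of neural progenitors, was at 263, 178 and 305 in WT and at 172, 190.3 and 123 in Cas9, with overlapping groups. Cortical neuron genes had a median of -0.306, -0.1 without WT replicate 3, -0.177 without Cas9 replicate 2 and -0.175 without Cas9 replicate 3.

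Cas9 cuts DNA where a guide directs it, so genes of the DNA damage response were counted. Double-strand break repair genes were lower in 20 of 29, with 1 separated (3.45%) and a median of -0.0407. That median ran from -0.0147 (without WT replicate 1) to -0.0779 (without WT replicate 3) on leaving out 1 library, moving by over 1.5 times also without WT replicate 2 and Cas9 replicates 2 and 3, and it was 0.000516 with array weights, which weight libraries by their spread. Targets of p53, the factor activated by DNA damage, were higher in 20 of 26, with 9 separated and higher (34.6%), 3 separated and lower (11.5%) and a median of 0.155, or 0.0807 without Cas9 replicate 1. Ccng1, a p53 target, was at 826, 922 and 755 in WT and at 1428, 1047 and 1164 in Cas9 (difference 0.53 ± 0.13, adjusted p = 0.405). Phlda3, another, was at 246, 213 and 244 and 496, 264 and 422. Sesn1, a stress-induced p53 target, lay the other way, at 1389.8, 1346 and 1307 in WT and 1147, 1229.7 and 1238 in Cas9 (difference -0.16 ± 0.0669, adjusted p = 0.411). Cdkn1a, the cell cycle inhibitor p21, was at 343, 316 and 324 and 370.2, 357 and 389, separated but with a difference of 0.18 ± 0.19 that was within its error. Genes of S phase and mitosis were lower in 24 of 33, with 6 separated and lower (18.2%), 1 separated and higher and a median of -0.132. The median was -0.0788, -0.21 and -0.0744 without WT replicate 1, 2 and 3. Gmnn (Geminin) was at 103, 106 and 96.9 in WT and at 87.3, 86.8 and 92.0 in Cas9. No gene of these lists passed the threshold.

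Genes of the unfolded protein response, which helps the endoplasmic reticulum fold secreted proteins, were higher in 24 of 26, with 13 separated (50%), a median of 0.213 and none past the threshold. Manf, a secreted factor induced by this response, was at 668, 763 and 671 in WT and at 1802, 2483 and 1067 in Cas9 (difference 1.27 ± 0.26, adjusted p = 0.405). It differed from the immune genes in that replicate 2 was the highest Cas9 library and replicate 3 the lowest. Its annotation overlaps those of Rbm15b and Dcaf1, so its count is uncertain. Dnajb11, a chaperone of the same compartment, was at 908, 1044 and 1015 and 1287, 1286 and 1209.

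Some transcripts of linker and core histones were separated, with replicate 2 not the lowest. Of 14 histone genes tested of 20 listed, 6 were separated and higher (42.9%, against 10.7% of all genes), with a median of 0.195, or 0.109 without Cas9 replicate 2. Of these 14, 2 had a WT mean under 10 and were tested only through their level in Cas9 or GCas9. Of the other 12, 7 were higher, 5 lower and 4 separated and higher (33.3%), with a median of 0.157. Hist1h1c, a linker histone, was at 385, 459 and 359 in WT and at 719, 796 and 636 in Cas9 (difference 0.84 ± 0.13, adjusted p = 0.404). Hist1h2be was at 141, 142 and 133 and 204, 227 and 192, and H1f0, the replacement linker histone, at 1266, 1384 and 1335 and 1725, 1615 and 1520.3. Many core histone genes are near copies of each other, and Hist1h2be overlaps Hist1h1e. Ribosomal protein genes were higher in 52 of 65, by a median of 0.0653 (0.0403 without Cas9 replicate 1 and 0.114 without Cas9 replicate 2), with 12 separated (18.5%), among them Rpl39 at 574, 634 and 637 in WT and 847, 732 and 787 in Cas9.

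Other genes ranked high by p without belonging to the lists above. Cav2, a coat protein of caveolae, was at 244, 243 and 215 in WT and at 382, 311 and 376 in Cas9 (difference 0.60 ± 0.10), and Arrdc3, an adaptor that lowers receptors at the membrane, at 1338, 1368 and 1264 and 1803, 1669 and 1636 (difference 0.36 ± 0.0635). On the lower side the differences were small but even. Usp10, a deubiquitinase, was at 1238, 1188 and 1281 in WT and at 1047, 1041 and 1068 in Cas9 (difference -0.23 ± 0.0471). Slc6a17, a vesicular amino acid transporter of neurons, was at 7959.8, 8325 and 8502 and 6505, 7429 and 6646, Nos1ap, an adaptor of neuronal nitric oxide synthase, at 1742, 1784 and 1578 and 1349.7, 1462 and 1383, and Sema3f, a guidance cue, at 801, 779 and 792 and 643, 701 and 618. Ackr1, a chemokine-binding receptor whose annotation overlaps Cadm3 on the same strand, was at 919, 987 and 919.5 and 716, 816 and 758. All were separated, and their adjusted p was 0.405.

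The GCas9 libraries of the set were compared with Cas9 in the same fit. No gene passed the threshold (0%), and the smallest adjusted p was 0.89, a value that 629 genes shared. At an unadjusted p under 0.05 there were 868 genes (5.45%). Gpnmb was at 212, 171 and 316 in GCas9, beside 146, 144 and 251 in Cas9 and 20.2, 20.7 and 24.7 in WT, and the GCas9 minus Cas9 difference was 0.37 ± 0.28, adjusted p = 0.942. Serpina3n was at 679, 1149 and 5598 in GCas9 (0.42 ± 0.62, adjusted p = 0.955). Mal and Manf were lower in GCas9 than in Cas9 without passing: Mal was at 7963, 7618 and 6451 in GCas9 and 14083, 8969 and 11024 in Cas9 (-0.61 ± 0.16, adjusted p = 0.89), and Manf at 718, 925 and 962 and 1802, 2483 and 1067 (-0.97 ± 0.26, adjusted p = 0.89). In Cas9, Mal was highest in replicate 1, the library with the choroid plexus markers. Immune genes ranged more widely in GCas9, a difference in spread that was not tested, with H2-Aa at 734, 245 and 4066. The median of the type I interferon list over the WT mean was 1.72, 0.42 and 5.11 in GCas9 and 2.38, 0.49 and 2.08 in Cas9. Since Cas9 and GCas9 share the WT libraries as controls, their differences from WT are not separate evidence, and an adjusted p above the threshold does not show that they act alike.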

How the data were processed

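RNA was sequenced from striatal tissue. Per the labels' protocols, RNA was purified on columns and checked for integrity, a SMARTer kit made the cDNA and Nextera XT the libraries, methods that amplify cDNA, so reads are not independent molecules. The submitters' processing notes list the build GRCm38.p3 and the tools DESeq2, HTSeq, R 3.3.3, SAMtools and STAR 2.5.2b, without roles, parameters or strand setting. Reads of overlapping, antisense or near-identical genes are therefore uncertain. The deposited signal is a read count per gene symbol, divided by the authors by 1 DESeq2 size factor per library. In 100% of values a whole multiple of 1 step per library was found within 0.001 reads, so read counts and totals were recovered (22.62 to 28.05 M (mega) reads on genes per WT or Cas9 library). The deposited table holds 41128 gene symbols.

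In R 4.3.3, limma 3.58.1 was run on log2(normalized count + 1), two-sided and with a trended moderated variance, over the 3 WT, 3 Cas9 and 3 GCas9 libraries of the first set. The 15924 genes with a mean of at least 10 over these 9 libraries were tested, with Benjamini-Hochberg adjustment over all of them. The procedure was run on simulated data in which the replicates of a group shared the same mean. That run does not show how the fit performs with Cas9 libraries as unlike as these. Alternatives were edgeR 4.0.16 and DESeq2 1.42.0 on the recovered reads, other scalings, pseudocounts, filters, weights, a replicate block and leaving out each library.

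The 53 gene lists (1096 genes, 4 matched by another symbol and 8 not in the table) were written from general knowledge. The comparison and the lists were chosen with earlier results of these data known, so no p-value is given for a list. Named genes are every gene past the threshold, up to 10 separated genes of smallest p in each direction whose mean reached 50, up to 4 genes of smallest p in each list, and several fixed markers; not every such gene is printed, and some results are not reported here. Positions are from GENCODE M21 on GRCm38, and promoter windows from RefSeq on GRCm38.p6.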

Additional observations from a re-analysis of the deposited data

How the results depend on the processing

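The count of 1 gene past the threshold was also 1 with TMM scaling, quantile normalization, a pseudocount of 0.5, no filter on low values and a minimum mean of 50. It was 0 with edgeR's quasi-likelihood test (1949 genes at an unadjusted p under 0.05) and with a pseudocount of 5 (1836 genes), 116 with DESeq2, 4 with only the 6 WT and Cas9 libraries (Gpnmb, Cst7, Serpina3n and an immunoglobulin variable segment), and 2 with a term for the Xist level, chosen after seeing the data. Array weights gave 2570 (1378 higher, 1192 lower), in a fit where Cas9 replicate 3 had a weight of 5.6 and Cas9 replicates 1 and 2 weights of 0.32 and 0.481. Leaving out 1 library gave 0 to 7 genes past the threshold, with 7 only without Cas9 replicate 2 (3 higher, 4 lower), and 4195 to 6686 separated genes (4752 without WT replicate 2), counts that cannot be set beside 3118, since 3 libraries against 2 separate more easily than 3 against 3. Of same-numbered WT and Cas9 libraries, those numbered 3, both high in Xist, deviated together (correlation 0.322) and those numbered 1 and 2 did not (0.008 and -0.019), so the numbers are not taken as pairs, and a replicate block gave 2 genes. GCas9 minus Cas9 gave 0 genes in each of its 3 fits, the block included. Gpnmb was the gene past the threshold in the main fit and missed it in 7 of its alternatives, named in the report. Of 135 named genes, 5 turned sign somewhere: with array weights Ppp1r1b went to 0.017, Drd2 to 0.0166, Penk to 0.0151 and Tac1 to 0.0665, and over the fits without 1 library Penk ran from -0.117 to 0.0401, Tac1 from -0.19 to 0.0275 and Kl from -0.0688 to 3.23, each with the other sign only without Cas9 replicate 1. Among list medians given in the report, array weights also turned those of both spiny neuron types together to 0.00854 and of the immediate early genes to 0.0186. Where no other value is given, the cause was not tested. Counting error limits genes with a few WT reads, such as Cst7, Cxcl9 and Cd3g. Setting members without a WT read to the bound from 3 reads left the list medians as given. Only 1 member of the nucleic acid sensor list and 1 of the T cell list were set so, and the medians could hardly move. Genes with a few WT reads were not changed by it, so it says nothing about their counting error.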

Other observations

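Some features of single libraries were chosen after their values were seen. Tpm3-rs7 was at 324, 357 and 381 in WT, at 379.6, 16.8 and 339.9 in Cas9 and at 340.4, 8.64 and 559.8 in GCas9, so that replicate 2 of both virus groups was low and the other 7 libraries were not. Hist2h2bb had the same pattern, at 44.3, 35.3 and 49.4 in WT, 66.5, 0 and 64.7 in Cas9 and 63.3, 0 and 157 in GCas9. Across genes, Cas9 replicate 2 correlated more closely with GCas9 replicate 2 (r = 0.9933) than any other 2 of the 9 libraries did, and with the WT libraries at 0.9849 to 0.988. These correlations are across genes, which are not independent replicates.

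Cd4, which marks helper T cells, was abundant in every library, at 3899, 3836 and 3302 in WT and 3364, 3499.7 and 3601 in Cas9, while Cd3g and Cd8a were near 0 in WT. Its difference of -0.0735 ± 0.0863 was within its error. Clec7a, a receptor of activated microglia for fungal glucans, was lowest in Cas9 replicate 1 rather than 2, at 6.74, 4.31 and 5.93 in WT and 38.5, 50.3 and 100.1 in Cas9 (difference 3.16 ± 0.57). Apoe, the lipid carrier of astrocytes and activated microglia, was at 28876, 27920.1 and 31520.2 in WT and 42904, 34745 and 42584 in Cas9 (difference 0.44 ± 0.0984, adjusted p = 0.405), with the groups separated.

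Red cell transcripts were checked as a sign of blood in the tissue. The summed level of 5 globin and related genes was 2681, 3449 and 2184 in WT and 4596, 1808 and 1492 in Cas9, so the 2 groups overlapped, with Cas9 replicate 1 the highest.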
